A study of Mus musculus with 24 samples.

Results

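The 41 genes described here encode the machinery that drives a cell through mitosis and divides its chromosomes: the kinases and cyclins that start mitosis, the spindle checkpoint, the anaphase-promoting complex with its partners, the chromosomal passenger complex, the kinetochore, the spindle motors, the cytokinesis proteins, the condensins and topoisomerase, and the proliferation marker Mki67. They were taken from a list of mitotic genes that was chosen with earlier results of these data known. The members were found on the arrays through probe sets annotated to 1 member gene each. Of the 41 members, 40 had such a probe set, out of 18193 genes in the series that did, and Ccnb1, which encodes cyclin B1, was not analysed here. Each gene was represented by its probe set with the highest mean signal over the 12 samples. For 34 members that probe set passed a filter on low signal and was tested, among 14480 tested genes. The 6 members under the filter were Bub1, Ttk, Ndc80, Kif20a, Ect2 and Ncapg.

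The data are microarray signals from lung tissue of IL-13 KO mice treated with HDM, wild-type (WT) mice treated with HDM, IL-13 KO mice treated with PBS and WT mice treated with PBS, with 3 samples in each of the 4 groups. HDM usually stands for house dust mite, a common allergen, and PBS for phosphate-buffered saline. RNA of each sample was read on 2 arrays that carry different probe sets, set A and set B. Treatment dose, route and timing, and the strain, age and sex of the mice, are not given by the labels. Nor do they tie the 3 samples of a group to separate mice, so every p-value here reflects sample-to-sample spread that may be technical.

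Most of these genes are silent in a resting cell and are transcribed in a wave late in the cell cycle, shortly before their products are needed. Cyclin-bound Cdk1 starts mitosis, the checkpoint delays anaphase until every kinetochore is attached to the spindle, and the anaphase-promoting complex then marks securin and cyclin B for destruction so that separase can open the cohesin rings. In a tissue such as lung, where most cells are not dividing at a given moment, the transcripts of these genes mark the minority of cells that are. In bulk tissue a larger share of dividing cells and more transcript in each of them cannot be told apart.

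Promoters of mitotic genes are known to share a pair of short elements, the cell cycle homology region TTTGAA close to the transcription start and CCAAT boxes upstream of it, through which the DREAM complex holds the genes silent and B-Myb, FoxM1 and NF-Y turn them on. In the RefSeq promoter windows, which run from 250 bases before to 50 bases after each gene's start, 36 of the 41 members were found. A search for the letters TTTGAA on both strands found a match in 28 of these 36 windows (77.8%), against 12.4% of the 11589 windows of tested genes and 18.1% of all 27025 windows. CCAAT on either strand was present in 28 of 36 (77.8%), against 37.8% of the windows of tested genes. Both elements were present in 25 members (69.4%), against 4.91% of the windows of tested genes and 7.12% of all windows. In 26 of 36 members (72.2%) a TTTGAA match lay within 50 bases of the start, against 2.96% of the windows of tested genes, a distance chosen after the positions were seen. The windows of Mad2l1, Birc5, Nuf2, Nusap1 and Ncaph held neither element. A match is a description of letters in this window and neither a binding site nor a cause, and the absence of a match says nothing about a factor.

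The windows of 8 members whose transcripts were higher after HDM in both genotypes are shown so that the shared letters can be seen beside the values below, 5′ to 3′ on the strand of the gene and with every TTTGAA and CCAAT match in capitals (TTCAAA and ATTGG where the match is on the other strand). All 8 hold both elements, so they do not stand for every called member. Mad2l1, Birc5 and Nusap1 were also called higher in both genotypes, and their windows held neither element. Coordinates are on mouse build GRCm38.p6 from RefSeq. Cdk1 lies at chr10:69352863-69353162 on the minus strand, Ccnb2 at chr9:70421505-70421804 on the minus strand, Bub1b at chr2:118597961-118598260 on the plus strand and Ube2c at chr2:164769679-164769978 on the plus strand. Cdca8 lies at chr4:124936868-124937167 on the minus strand, Prc1 at chr7:80294201-80294500 on the plus strand, Top2a at chr11:99024140-99024439 on the minus strand and Mki67 at chr7:135716330-135716629 on the minus strand. Each window covers the upstream region and the first bases of the transcript.
Cdk1: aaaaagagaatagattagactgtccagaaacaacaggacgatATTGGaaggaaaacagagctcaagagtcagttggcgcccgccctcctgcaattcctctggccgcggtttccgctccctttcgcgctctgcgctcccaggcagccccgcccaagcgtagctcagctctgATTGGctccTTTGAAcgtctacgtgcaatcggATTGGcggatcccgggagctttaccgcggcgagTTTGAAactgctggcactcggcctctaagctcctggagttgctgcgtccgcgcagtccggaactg
Ccnb2: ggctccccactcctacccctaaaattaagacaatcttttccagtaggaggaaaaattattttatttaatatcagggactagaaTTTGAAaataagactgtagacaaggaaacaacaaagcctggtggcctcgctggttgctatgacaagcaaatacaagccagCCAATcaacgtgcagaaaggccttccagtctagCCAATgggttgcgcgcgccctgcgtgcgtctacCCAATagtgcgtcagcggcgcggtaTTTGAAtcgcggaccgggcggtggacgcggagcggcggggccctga
Bub1b: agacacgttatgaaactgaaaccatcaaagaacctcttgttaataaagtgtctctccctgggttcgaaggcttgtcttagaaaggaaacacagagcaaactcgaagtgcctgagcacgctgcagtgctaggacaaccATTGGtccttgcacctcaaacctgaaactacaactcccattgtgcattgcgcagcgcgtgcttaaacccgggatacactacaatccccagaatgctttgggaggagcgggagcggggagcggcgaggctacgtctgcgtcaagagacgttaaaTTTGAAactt
Ube2c: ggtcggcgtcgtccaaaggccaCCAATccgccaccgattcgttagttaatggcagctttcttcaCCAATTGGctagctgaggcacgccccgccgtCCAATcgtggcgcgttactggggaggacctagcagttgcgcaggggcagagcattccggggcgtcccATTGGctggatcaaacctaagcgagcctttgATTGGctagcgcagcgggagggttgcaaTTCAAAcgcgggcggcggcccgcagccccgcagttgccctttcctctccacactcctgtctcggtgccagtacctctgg
Cdca8: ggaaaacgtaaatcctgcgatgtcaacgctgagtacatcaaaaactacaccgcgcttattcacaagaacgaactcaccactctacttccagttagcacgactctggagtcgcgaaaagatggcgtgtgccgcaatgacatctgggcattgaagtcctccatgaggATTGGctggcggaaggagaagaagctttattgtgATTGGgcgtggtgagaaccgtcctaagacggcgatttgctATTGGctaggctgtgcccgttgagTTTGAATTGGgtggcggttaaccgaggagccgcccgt
Prc1: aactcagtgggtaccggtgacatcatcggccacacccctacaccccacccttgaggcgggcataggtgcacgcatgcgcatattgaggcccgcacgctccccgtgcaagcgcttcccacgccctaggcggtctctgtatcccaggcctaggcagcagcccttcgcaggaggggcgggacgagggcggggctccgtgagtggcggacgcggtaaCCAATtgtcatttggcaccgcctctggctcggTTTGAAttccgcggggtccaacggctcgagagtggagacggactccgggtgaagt
Top2a: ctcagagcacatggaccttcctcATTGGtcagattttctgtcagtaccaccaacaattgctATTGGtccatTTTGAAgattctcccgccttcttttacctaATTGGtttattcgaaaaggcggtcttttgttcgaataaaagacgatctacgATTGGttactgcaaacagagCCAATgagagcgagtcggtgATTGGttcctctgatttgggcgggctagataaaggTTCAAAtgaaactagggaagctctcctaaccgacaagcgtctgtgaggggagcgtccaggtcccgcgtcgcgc
Mki67: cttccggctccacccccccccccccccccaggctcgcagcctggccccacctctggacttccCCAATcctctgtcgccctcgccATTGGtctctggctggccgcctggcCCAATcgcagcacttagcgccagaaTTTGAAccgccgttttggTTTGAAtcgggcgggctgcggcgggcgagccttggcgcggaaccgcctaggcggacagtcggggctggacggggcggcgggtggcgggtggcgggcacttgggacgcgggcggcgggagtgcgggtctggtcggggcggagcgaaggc

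In these windows the TTTGAA match nearest to the start lay 15 bases before it in Cdk1, 29 before it in Ube2c, 23 before it in Top2a and 5 before it in Prc1, but 98 before it in Mki67. It lay after the start in Ccnb2, Cdca8 and Bub1b, at position 41 in Bub1b. Of the 21 members called higher after HDM in both genotypes, 18 had a window, and 15 of these (83.3%) held both elements.

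Some facts of the samples bear on the values below. On array set A the probe set of Il13 itself lay under the filter and its signal overlapped between genotypes, at 8.71 to 15.5 in KO HDM and 15.5 to 29.9 in WT HDM samples, and 3.3 to 9.45 in KO PBS and 4.65 to 12.1 in WT PBS samples. The labels do not say which stretch of the gene was deleted, so this probe set checks no genotype label. The 5 skeletal muscle markers summed to 166.5 to 268.3 in KO HDM and 304 to 5144 in WT HDM samples, and to 221.9 to 395.7 in KO PBS and 257.4 to 2442 in WT PBS samples. WT HDM replicates 1 and 2 and WT PBS replicate 2 held that signal. The actin 5′ to 3′ signal ratio is a sign of RNA quality. On set A it was 0.464 to 0.656 in KO HDM and 0.695 to 0.832 in WT HDM samples. After PBS it was 0.748 to 0.854 in KO and 0.409 to 0.898 in WT, lowest of all in WT PBS replicate 2 at 0.409. On set A every KO HDM sample thus lay below every KO PBS sample in this ratio. On set B these groups overlapped narrowly, at 0.428 to 0.612 in KO HDM and 0.61 to 0.897 in KO PBS samples. The part of RNA quality in the HDM difference of KO was not tested. Lung markers were high in every sample, with summed signals of the 6 alveolar type 2 genes between 17496 and 22704.

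Mitosis genes were higher after HDM in both genotypes. In KO lung 24 of 34 tested members were called higher and 0 lower, where a call is an adjusted p under 0.05 in limma, with Benjamini-Hochberg adjustment over all 31496 tested probe sets. Of all tested genes 5.77% were called higher and 5.33% lower in that comparison. In WT lung 23 of 34 were called higher and 0 lower, against 5.48% of all tested genes called higher and 5.18% called lower. Of the 34, 21 were called higher in both genotypes, against 3.52% of all tested genes. The median log2 difference, HDM minus PBS, was 1.26 in KO and 1.02 in WT, beside 0.0078 in KO and -0.0032 in WT over all tested genes. In each genotype 29 of 34 members had every HDM sample above every PBS sample, against 17.2% of tested genes in KO and 13.3% in WT.

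These counts cover the tested members and not all 41. The members were chosen with earlier results of these data known, so the shares above are no independent test. Of the 34, 8 had a mean over the 6 PBS samples below the filter value (Cdk1, Bub1b, Cdca3, Cenpa, Nuf2, Spc25, Kif11 and Kif23), so that they passed through their HDM samples. The medians and the counts of members without overlap above include these 8. Of the other 26, 19 were called higher in KO and 18 in WT. When all 40 members with a probe set were tested without a filter, 25 were called in KO and 20 in WT. The KO count was between 21 and 26 whichever sample was left out. The WT count was 14 without WT HDM replicate 1, 14 without WT PBS replicate 2, and 5 when all 3 samples holding muscle signal were dropped. That last fit has 1 WT HDM sample, assumed to vary like the samples of the other groups, so its count says little of stability. Calls lost on leaving out 1 sample were Cenpf, Nuf2, Kif11 and Smc2 in KO, and Ccna2, Plk1, Bub1b, Aurkb, Cenpa, Cenpe, Cenpf, Kif11 and Racgap1 in WT.

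**Figure D1:**
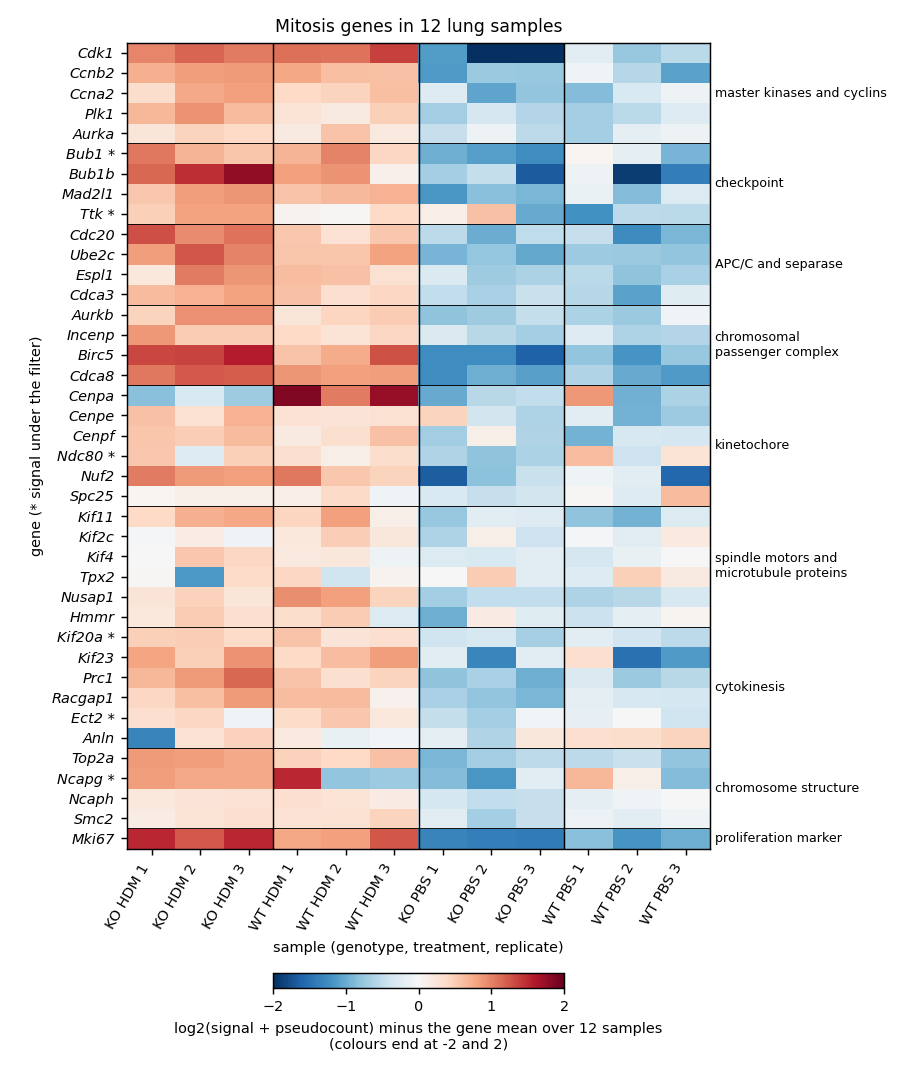
Signal of the 40 members with a probe set in the 12 lung samples, as log2(signal + pseudocount) minus each gene's own mean, with samples in columns by group and genes in rows by role. The 6 HDM columns on the left are mostly red and the 6 PBS columns on the right mostly blue. Cenpa, Tpx2, Anln, Spc25, Ncapg and Ndc80 are among the exceptions.

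Among the kinases and cyclins that start mitosis, 4 of 5 tested members were called in each genotype. Cdk1, the mitotic cyclin-dependent kinase, had signals of 143, 163 and 150 in KO HDM samples and 157, 156 and 190 in WT HDM samples. After PBS it had 28.3, 11.8 and 10.8 in KO and 59.2, 38.3 and 45.4 in WT. HDM samples of the genotypes overlapped, and the KO PBS samples lay below every WT PBS sample. The log2 difference between HDM and PBS was 2.81 ± 0.26 in KO (SE, limma adjusted p = 5.65e-05) and 1.69 ± 0.26 in WT (adjusted p = 0.00173), a fold of 6.99 in KO and 3.23 in WT on the log2(signal + pseudocount) scale. For weak signals this scale gives a smaller change than the ratio of signals. Ccnb2, encoding cyclin B2, rose by 1.69 ± 0.24 in KO and 1.22 ± 0.24 in WT. Ccna2, encoding cyclin A2, rose by 1.35 ± 0.24 in KO and 0.91 ± 0.24 in WT, and Plk1, the Polo kinase of spindle and centrosome, by 1.27 ± 0.19 in KO and 0.81 ± 0.19 in WT. Aurka, the centrosomal Aurora kinase, was not called, at 0.72 ± 0.22 in KO (adjusted p = 0.0601) and 0.63 ± 0.22 in WT (adjusted p = 0.107), although its HDM and PBS samples did not overlap in either genotype.

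Both tested checkpoint genes rose in each genotype. Bub1b, which encodes the checkpoint kinase-like protein BubR1, had 162, 206 and 256 in KO HDM samples and 127, 134 and 72.5 in WT HDM samples, all above the PBS samples. After PBS it had 37.5, 44.9 and 13.5 in KO and 62.0, 9.87 and 18.9 in WT. Its KO HDM samples lay above its WT HDM samples, and its PBS samples spread widely. The difference between HDM and PBS was 2.41 ± 0.44 in KO (adjusted p = 0.00512) and 1.73 ± 0.44 in WT (adjusted p = 0.031). Mad2l1, which encodes the checkpoint protein Mad2, had 110.0, 136 and 141 in KO HDM samples and 112, 119 and 123 in WT HDM samples, against 28.6, 37.9 and 35.5 in KO PBS and 66.2, 36.9 and 58.9 in WT PBS samples. The genotypes overlapped after each treatment, narrowly after PBS. It rose by 1.73 ± 0.22 in KO and 1.07 ± 0.22 in WT. Bub1, the kinase that recruits checkpoint proteins to the kinetochore, lay under the filter, with 25.3 to 38.7 in KO HDM, 22.3 to 36.7 in WT HDM, 2.29 to 4.1 in KO PBS and 4.55 to 15.5 in WT PBS samples. Tested without the filter it was called in KO (1.87 ± 0.27, adjusted p = 0.00187) and in WT (1.05 ± 0.27, adjusted p = 0.0467). Ttk, the checkpoint kinase Mps1, was not called without the filter. On the probe sets that represent them, neither were Ndc80, the microtubule-binding subunit of its complex, Ect2, an activator of RhoA in cytokinesis, and Ncapg, a condensin subunit. A second Ncapg probe set, also under the filter, was called in KO (1.59 ± 0.33, limma adjusted p = 0.0144). It was not called in WT (0.72 ± 0.33, adjusted p = 0.296), and a second Bub1 probe set was called in neither genotype.

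On the probe sets that represent them, the anaphase genes Cdc20, Ube2c and Espl1, and Cdca3 listed with them, were called higher in both genotypes. Cdc20, the activator of the anaphase-promoting complex, rose by 1.78 ± 0.21 in KO and 1.33 ± 0.21 in WT. Ube2c, its ubiquitin-conjugating enzyme, had 195, 261 and 218 in KO HDM samples and 158, 159 and 189 in WT HDM samples. After PBS it had 52.5, 59.0 and 48.7 in KO and 61.3, 60.2 and 58.4 in WT. The 6 PBS samples lay within a narrow band, and the 3 KO HDM samples lay above the 3 WT HDM samples. The difference was 1.93 ± 0.16 in KO (adjusted p = 2.65e-05) and 1.39 ± 0.16 in WT (adjusted p = 0.000261). Espl1, which encodes separase, rose by 1.25 ± 0.21 in KO and 1.17 ± 0.21 in WT. Cdca3, which encodes an F-box-like protein that promotes entry into mitosis, had 80.6, 83.9 and 91.5 in KO HDM samples and 77.3, 64.1 and 67.9 in WT HDM samples, against 33, 29.1 and 34.2 in KO PBS and 30.9, 19.9 and 40.5 in WT PBS samples. HDM and PBS samples did not overlap, and KO lay above WT after HDM. The difference was 1.24 ± 0.22 in KO and 1.07 ± 0.22 in WT. A second Cdca3 probe set was not called, at 0.38 ± 0.21 in KO and 0.062 ± 0.21 in WT.

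The 4 members of the chromosomal passenger complex, which corrects wrong attachments and guides cytokinesis, all rose in both genotypes. Birc5, which encodes survivin, had 248, 250 and 295 in KO HDM samples and 143, 162 and 238 in WT HDM samples. After PBS it had 35.7, 35.8 and 26.1 in KO and 51.8, 37.5 and 52.6 in WT. KO samples were above WT samples after HDM and below them after PBS, without overlap in either case. The HDM difference was 2.78 ± 0.22 in KO (adjusted p = 1.59e-05) and 1.77 ± 0.22 in WT (adjusted p = 0.000381). Cdca8, which encodes borealin, had the smallest adjusted p of the members in each genotype, at 2.27 ± 0.14 in KO (adjusted p = 4.04e-06) and 1.76 ± 0.14 in WT (adjusted p = 1.42e-05). Its signals were 713, 803 and 797 in KO HDM samples and 630, 601 and 611 in WT HDM samples, against 136, 165 and 152 in KO PBS and 218, 161 and 148 in WT PBS samples. Each HDM sample of Cdca8 lay above each PBS sample. Aurkb, the kinase of the complex, rose by 1.42 ± 0.23 in KO and 0.87 ± 0.23 in WT. Incenp, its scaffold, had 223, 173 and 173 in KO HDM samples and 159.9, 146 and 160.3 in WT HDM samples, against 96.5, 78.7 and 71.6 in KO PBS and 99, 75.5 and 76.6 in WT PBS samples. KO lay above WT after HDM and overlapped with it after PBS, and the difference was 1.14 ± 0.17 in KO and 0.85 ± 0.17 in WT. Of the 3 tested Incenp probe sets, 1 stayed near 0, at 0.040 ± 0.23 in KO and 0.14 ± 0.23 in WT.

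**Figure D2:**
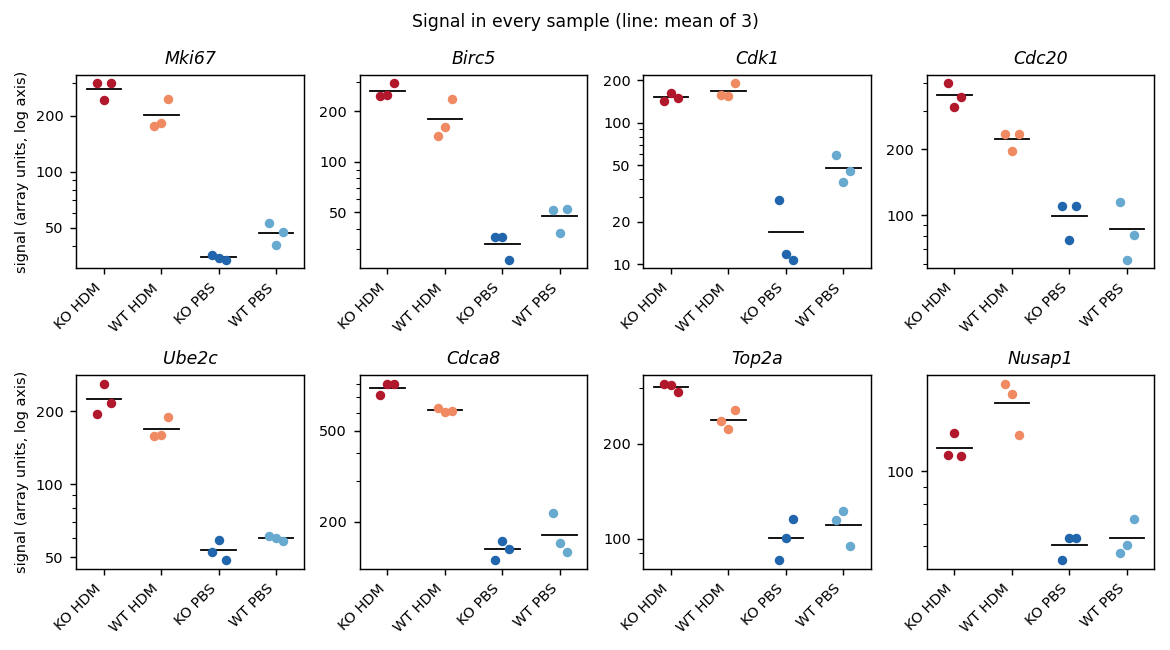
Array signal of 8 members in every sample on a log axis, 3 points a group with a line at the mean, for KO HDM, WT HDM, KO PBS and WT PBS lungs. HDM and PBS points do not overlap for any of the 8 genes in either genotype, and only Nusap1 and Cdk1 have a lower HDM mean in KO than in WT.

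Kinetochore genes were mixed, with 2 of 5 tested members called in KO and 3 of 5 in WT, and each of these calls was lost when some single sample was left out. Cenpf, which encodes a large kinetochore protein, had 94.9, 90.04 and 100.3 in KO HDM samples and 71.6, 79.7 and 97 in WT HDM samples, against 35.7, 67.5 and 38.7 in KO PBS and 28.8, 48.5 and 47.3 in WT PBS samples. The genotypes overlapped after each treatment. Cenpf rose by 0.96 ± 0.25 in KO (adjusted p = 0.0359) and 0.90 ± 0.25 in WT (adjusted p = 0.0485), while its second tested probe set was not called. Cenpe, the kinetochore kinesin, was not called in KO (0.71 ± 0.26, adjusted p = 0.119) and was called in WT (0.92 ± 0.26, adjusted p = 0.0489). Nuf2, a subunit of the Ndc80 complex that grips microtubules, had 71.2, 61.5 and 60.1 in KO HDM samples and 72.2, 48.2 and 44.6 in WT HDM samples, against 5.14, 14.5 and 21.0 in KO PBS and 28.9, 25.9 and 5.83 in WT PBS samples. The groups did not overlap in either genotype. Nuf2 was called in KO (1.87 ± 0.40, adjusted p = 0.013) and not in WT (1.30 ± 0.40, adjusted p = 0.0735), and neither Cenpe nor Nuf2 had a called difference between the HDM effects. Spc25, of the same complex, was at 0.47 ± 0.25 in KO and 0.014 ± 0.25 in WT and was not called in either. A second tested probe set of Spc25 had larger values, 1.35 ± 0.58 in KO (adjusted p = 0.185) and 1.09 ± 0.58 in WT (adjusted p = 0.326), also without a call.

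Cenpa, the histone H3 variant that marks the centromere, was called in WT on 2 of its 3 tested probe sets and in KO on 1. The probe set with the highest mean, on array set B, had 17.2, 29.9 and 19.7 in KO HDM samples and 171, 92.7 and 157 in WT HDM samples. After PBS it had 14.1, 23.2 and 24.6 in KO and 81.1, 15 and 21.4 in WT. WT HDM samples and WT PBS replicate 1 stood above the others. By this probe set Cenpa was not called after HDM in KO (0.070 ± 0.41, adjusted p = 0.946) and rose in WT (1.78 ± 0.41, adjusted p = 0.0198), and it was lower in KO than in WT after HDM (-2.16 ± 0.41, adjusted p = 0.0416). The set A probe set had 62.8, 96 and 91.6 in KO HDM samples and 92.5, 59.3 and 106 in WT HDM samples, against 24.7, 24.4 and 33.0 in KO PBS and 27.3, 23.3 and 23.1 in WT PBS samples. It rose in both genotypes, by 1.38 ± 0.25 in KO (adjusted p = 0.00474) and 1.53 ± 0.25 in WT (adjusted p = 0.00247), and its KO and WT samples overlapped after HDM. Which Cenpa transcript or other transcript each probe set detects was not tested.

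Of the spindle motors and microtubule proteins, 2 of 6 were called in each genotype. Kif11, the kinesin that separates the spindle poles, had 53.5, 68.5 and 71.6 in KO HDM samples and 54.7, 74.4 and 43.0 in WT HDM samples, against 20.04, 32.4 and 31.4 in KO PBS and 19.2, 16.7 and 31.1 in WT PBS samples. The HDM and PBS samples did not overlap, and the difference was 1.04 ± 0.27 in KO (adjusted p = 0.032) and 1.14 ± 0.27 in WT (adjusted p = 0.023). Nusap1, which bundles spindle microtubules around chromosomes, had 112, 130 and 111 in KO HDM samples and 182, 169 and 128 in WT HDM samples, against 54.6, 63.6 and 63.2 in KO PBS and 57.4, 60.5 and 72.4 in WT PBS samples. It rose in both, and its HDM effect was the smaller in KO, at 0.88 ± 0.18 (adjusted p = 0.00952), with 1.23 ± 0.18 in WT (adjusted p = 0.00117). Kif2c, which depolymerises microtubules, had 69, 78.2 and 66 in KO HDM samples and 81.7, 101 and 82.9 in WT HDM samples, against 43, 76.8 and 50.7 in KO PBS and 67.5, 59.4 and 80.6 in WT PBS samples. Its HDM and PBS samples overlapped in KO and not in WT. Hmmr, a spindle-assembly protein, had 71.1, 89.2 and 78.4 in KO HDM samples and 79.4, 89 and 48.9 in WT HDM samples, against 27.3, 68.7 and 49.8 in KO PBS and 43.2, 51.9 and 63 in WT PBS samples. Its HDM and PBS samples overlapped in WT and not in KO. Kif2c, Hmmr and Kif4, a chromosome-bound kinesin, were not called, with differences of 0.32 to 0.71 in KO and 0.27 to 0.39 in WT. A set B probe set of Hmmr was at 0.50 ± 0.25 in KO and -0.030 ± 0.25 in WT, and a further probe set of Kif2c at 0.21 ± 0.29 in KO and -0.35 ± 0.29 in WT, with no call.

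Tpx2, which activates Aurora A on the spindle, also depended on the probe set. The set B probe set with the highest mean overlapped between all groups, at 218 to 646 in KO HDM, 376 to 670 in WT HDM, 429 to 716 in KO PBS and 415 to 699 in WT PBS samples. Its difference was -0.35 ± 0.35 in KO and -0.10 ± 0.35 in WT, with no call. The set A probe set had 78.8, 74.2 and 87.4 in KO HDM and 80.2, 71.4 and 61.9 in WT HDM samples, against 32.7, 30.5 and 37.9 in KO PBS and 36.8, 26.2 and 45.5 in WT PBS samples. By this probe set Tpx2 rose in KO (1.10 ± 0.21, adjusted p = 0.00742) and in WT (0.88 ± 0.21, adjusted p = 0.0259). Signals of different probe sets are not on a common scale, so neither probe set shows more transcript than the other.

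In all, 17 members had at least 2 tested probe sets, and in 10 of them the probe sets disagreed in a call or a direction. With the set A probe set used wherever a gene had a tested one, an alternative added after seeing these values, 26 of 34 members were called in KO and 24 in WT, 0 of them lower.

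**Figure D3:**
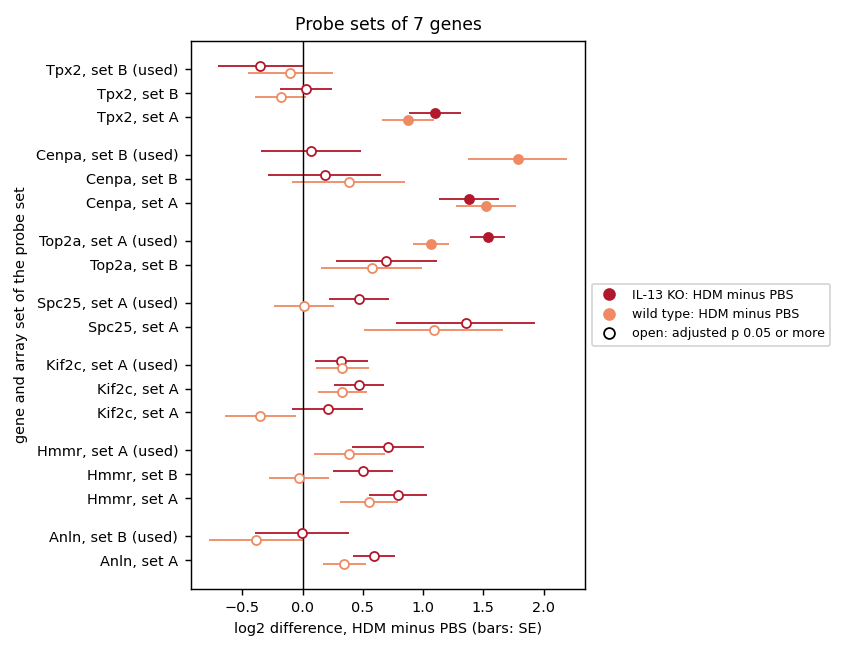
Log2 difference, HDM minus PBS, with SE for every tested probe set of 7 members, in KO (dark red) and WT (orange), filled where the limma adjusted p is under 0.05. The set A probe sets of Tpx2 and Cenpa were called higher in both genotypes, while the set B probe sets used to represent these genes gave at most 1 call.

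Among cytokinesis genes 2 of 4 tested members were called in each genotype. Prc1, which bundles the central spindle, had 159, 183 and 226 in KO HDM samples and 150, 124 and 137 in WT HDM samples, against 53.4, 59.8 and 46.4 in KO PBS and 79.5, 56.1 and 65.0 in WT PBS samples. KO samples were above WT samples after HDM. The HDM difference was 1.70 ± 0.19 in KO (adjusted p = 0.000201) and 0.97 ± 0.19 in WT (adjusted p = 0.00736), and its second tested probe set was called in KO alone, at 1.40 ± 0.37, with 0.97 ± 0.37 in WT. Racgap1, of the centralspindlin complex, rose by 1.41 ± 0.19 in KO and 0.74 ± 0.19 in WT. Kif23, its motor partner, had 80.7, 63.5 and 87.1 in KO HDM and 60.04, 71 and 83.1 in WT HDM samples, against 36.5, 13.5 and 36.8 in KO PBS and 56.7, 11 and 16 in WT PBS samples. Its groups did not overlap, but it was not called, at 1.30 ± 0.43 in KO (adjusted p = 0.0852) and 1.39 ± 0.43 in WT (adjusted p = 0.073). Anln, which encodes the actin-binding protein anillin, was not called on either probe set. Its set B probe set had 15.4, 69.4 and 79.7 in KO HDM and 63.9, 48.0 and 52.1 in WT HDM samples, against 47.0, 32.2 and 66.0 in KO PBS and 72.2, 73 and 78 in WT PBS samples. That made Anln the 1 tested member whose WT HDM samples all lay below the WT PBS samples, against 14.5% of all tested genes, while its set A probe set was at 0.59 ± 0.18 in KO and 0.35 ± 0.18 in WT. Of the members under the filter, Kif20a, a motor of the central spindle, was called in KO when tested without the filter (0.90 ± 0.21, adjusted p = 0.0261) and not in WT (0.77 ± 0.21, adjusted p = 0.0583).

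All 3 tested genes of chromosome structure were called in KO and 1 in WT. Top2a, the topoisomerase that untangles sister chromatids, had 311, 308 and 292 in KO HDM samples and 236, 224 and 257 in WT HDM samples, against 85.8, 101 and 115 in KO PBS and 115, 122 and 95.0 in WT PBS samples. KO HDM samples lay above WT HDM samples, and the PBS samples of the genotypes overlapped. The HDM difference was 1.54 ± 0.15 in KO (adjusted p = 7.45e-05) and 1.06 ± 0.15 in WT (adjusted p = 0.000869), and a second, set B probe set was not called. The other 2 encode condensin subunits. Ncaph was at 0.68 ± 0.14 in KO (adjusted p = 0.00932) and 0.34 ± 0.14 in WT (adjusted p = 0.175), and Smc2 at 0.70 ± 0.18 in KO (adjusted p = 0.0277) and 0.49 ± 0.18 in WT (adjusted p = 0.129). Neither had a called difference between the 2 HDM effects.

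Mki67, the source of the Ki-67 antigen by which pathologists count cycling cells, had 298, 243 and 298 in KO HDM samples and 175, 183 and 246 in WT HDM samples. After PBS it had 35.6, 34.4 and 33.7 in KO and 53.0, 40.2 and 47.1 in WT. The KO PBS samples were nearly identical and lay below every WT PBS sample, while after HDM the genotypes overlapped narrowly. The HDM difference was 2.78 ± 0.18 in KO (adjusted p = 4.37e-06), a fold of 6.87, and 1.94 ± 0.18 in WT (adjusted p = 4.28e-05), a fold of 3.85.

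**Figure D4:**
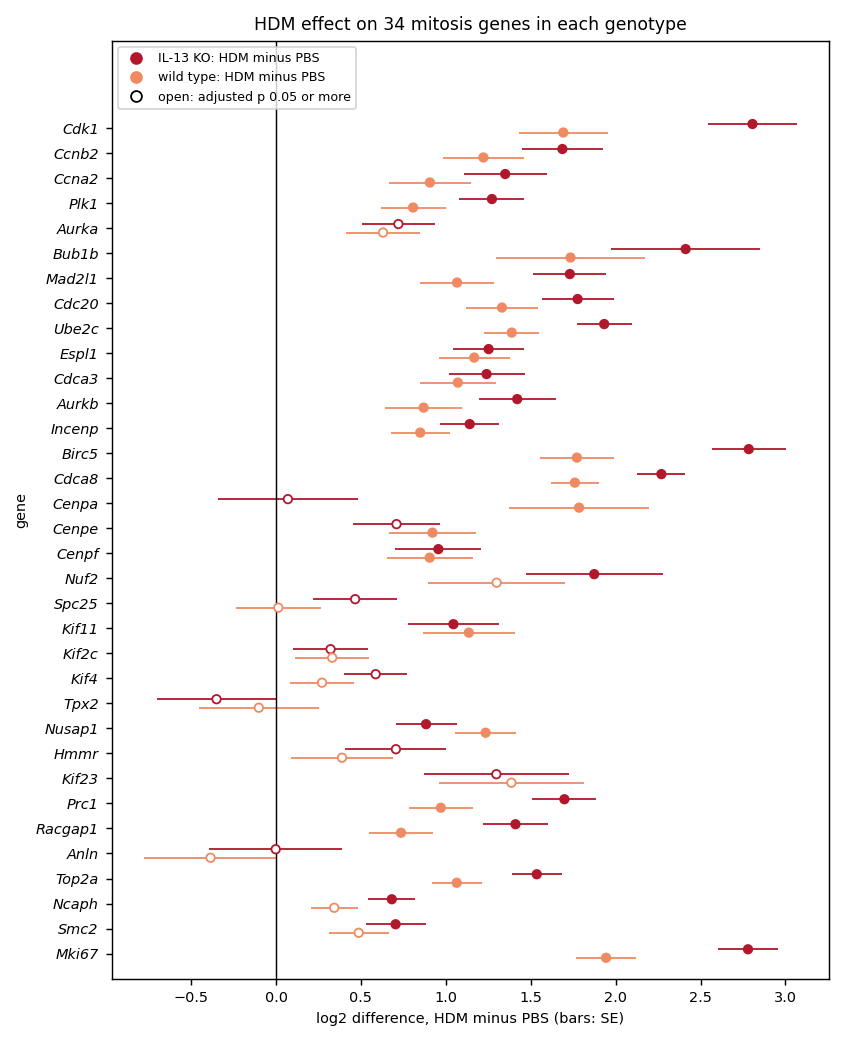
Log2 difference, HDM minus PBS, with SE for the 34 tested members in KO (dark red) and WT (orange), filled where the limma adjusted p is under 0.05. Birc5, Cdk1 and Mki67 have the largest values in KO, near 2.8, and 27 of 34 KO values lie to the right of their WT value.

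The difference between the 2 HDM effects, KO minus WT, tests whether the response changed without IL-13. No member had a called difference in limma, against 0.173% of all tested genes, and the smallest adjusted p over the members was 0.642. At an unadjusted p under 0.05 there were 10 members, 9 of them with a larger effect in KO, against 6.18% of all tested genes in either direction and 2.94% with a larger effect in KO. The KO effect was above the WT effect in 27 of 34 tested members, against 53.0% of all tested genes. The median difference was 0.41 beside 0.022 over all tested genes. The members were read in the same samples and are not independent observations, so these shares are no test. The members that had a smaller effect in KO were Cenpa, Cenpe, Kif11, Kif2c, Tpx2, Nusap1 and Kif23. By p the first members were Mki67 (0.84 ± 0.25, adjusted p = 0.642), Birc5 (1.01 ± 0.31, 0.643), Cdk1 (1.11 ± 0.37, 0.719), Cenpa (-1.71 ± 0.58, 0.747) and Prc1 (0.73 ± 0.27, 0.765). A p that misses the threshold does not show that the effects were alike.

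The direct comparisons of genotypes show both ends of that difference, and they share samples with it. Their counts of members likewise come from shared samples and are no test. After HDM the members were mostly higher in KO, 25 of 34 above 0 against 53.6% of all tested genes, with a median of 0.19 beside 0.020. In 10 members every KO sample lay above every WT sample (Plk1, Bub1b, Cdc20, Ube2c, Cdca3, Incenp, Birc5, Cdca8, Prc1 and Top2a), against 9.62% of all tested genes, and in Cenpa and Kif2c every KO sample lay below, against 7.35%. The only call was Cenpa, lower in KO, where 0.732% of all tested genes were called and 0.539% called lower. That call was lost in 18 of the alternatives run and kept in 7. Leaving out any 1 of the 6 HDM samples was among those that lost it. After PBS the members were mostly lower in KO, 26 of 34 below 0 against 49.9% of all tested genes, with a median of -0.17 beside 0.00053. In 7 members every KO PBS sample lay below every WT PBS sample (Cdk1, Birc5, Spc25, Racgap1, Anln, Ncaph and Mki67), against 5.83% of all tested genes. No member was called after PBS, against 0.0207% of all tested genes, and 4 had an unadjusted p under 0.05, against 7.49%. The largest differences were Cdk1 at -1.25 ± 0.26 (adjusted p = 0.273), Anln at -0.56 ± 0.39 (0.828) and Mad2l1 at -0.55 ± 0.22 (0.669). Without KO PBS replicate 1, whose Cdk1 signal was the highest of its group, Cdk1 was called lower at -1.56 (limma adjusted p = 0.0341). It was not called in the other 25 alternatives, and its limma adjusted p reached 0.531 on leaving out 1 sample. The KO PBS signals of Cdk1, 10.8 to 28.3, all lay under the filter value of 33.9. In 17 members KO was the higher genotype after HDM and the lower one after PBS.

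**Figure D5:**
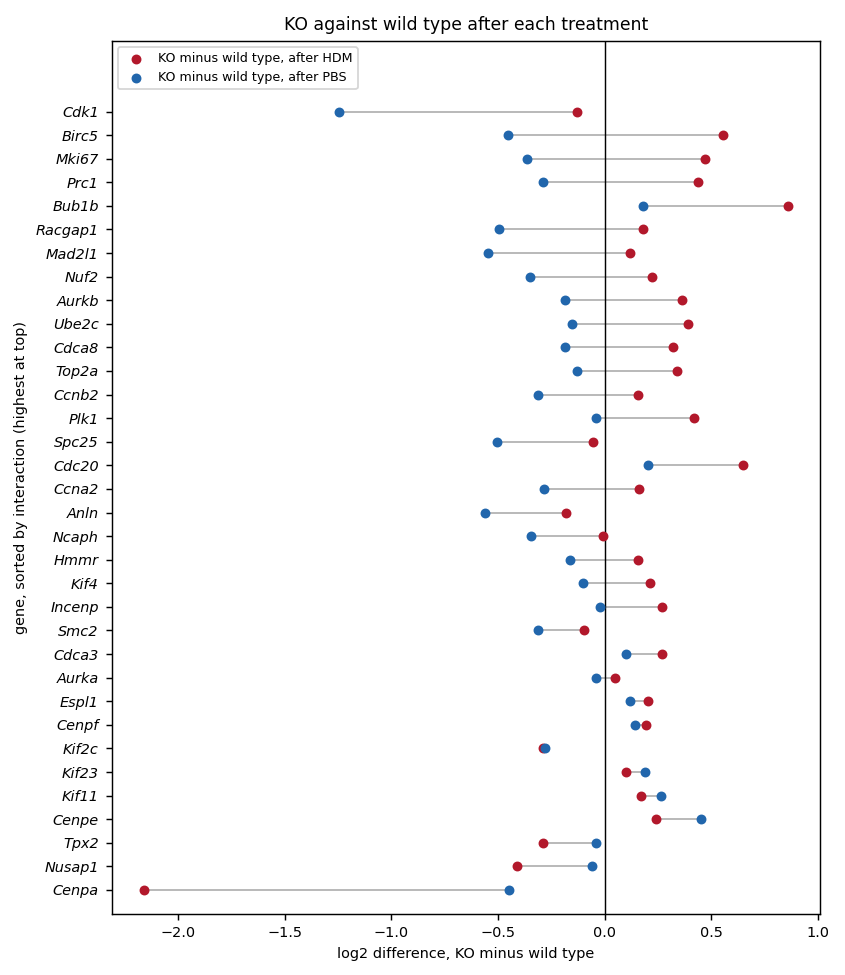
Log2 difference, KO minus WT, for the 34 tested members after HDM (red) and after PBS (blue), sorted by the difference between the 2. Most red points lie right of 0 and most blue points left of it, with Cenpa far to the left after HDM and Cdk1 after PBS.

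The mean log2 signal over the 34 tested members restates the same values per sample and is no separate support. Among the 34 are the 8 that passed the filter only through their HDM samples. This mean was 7.05, 7.20 and 7.27 in KO HDM samples and 7.09, 7.04 and 7.03 in WT HDM samples. After PBS it was 5.89, 5.93 and 5.88 in KO and 6.21, 5.94 and 6.11 in WT. HDM samples lay above PBS samples throughout, and the HDM genotypes overlapped. KO PBS samples lay below WT PBS samples only by a near tie, at 5.93 in KO PBS replicate 2 and 5.94 in WT PBS replicate 2.

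Markers of several other cell types moved with these comparisons, while other lists had few or no calls. The part of these cell types in the results was not tested. Beside the counts below, 5.77% of all tested genes were called higher and 5.33% lower in KO. In WT 5.48% were called higher and 5.18% lower. All markers had signal above 0 in every sample, but so do probe sets far under the filter, so this does not show a cell type. The 5 eosinophil markers all lay under the filter. Macrophage markers were called higher after HDM in 9 of 12 in KO and 10 of 12 in WT, with summed signals of 11858 to 12630 in KO HDM, 11653 to 13594 in WT HDM, 3565 to 4198 in KO PBS and 3396 to 3875 in WT PBS samples. Plasma cell markers were called higher in 5 of 8 in KO and 4 of 8 in WT, with summed signals of 15938 to 18387 in KO HDM, 9324 to 12045 in WT HDM, 3029 to 4296 in KO PBS and 3674 to 4068 in WT PBS samples. T cell markers were called higher in 6 of 11 in KO and 4 of 11 in WT, with sums of 2722 to 2940 in KO HDM, 1839 to 2412 in WT HDM, 1568 to 1742 in KO PBS and 1257 to 1468 in WT PBS samples. Plasma cell and T cell sums were higher in KO than in WT after HDM without overlap, and in the same samples the actin ratio was lower. After PBS, T cell and B cell sums were likewise higher in KO than in WT without overlap. So were monocyte and neutrophil sums (797 to 853 in KO PBS and 448 to 710 in WT PBS samples). Sums were also higher in KO than in WT after HDM without overlap for dendritic cell markers (1190 to 1238 in KO HDM and 957 to 1017 in WT HDM samples), mast cell markers (923 to 1186 in KO HDM and 738 to 856 in WT HDM), airway epithelial markers (14065 to 15100 in KO HDM and 9516 to 12185 in WT HDM) and alveolar type 1 markers (19256 to 21708 in KO HDM and 13197 to 18239 in WT HDM). Between HDM and PBS, dendritic cell markers were called higher in 3 of 6 in KO and 0 in WT, and mast cell markers in 3 of 5 in KO and 2 in WT. Airway epithelial markers were called lower in 0 of 7 in KO and 2 in WT, and alveolar type 1 markers in 1 of 5 in KO and 2 in WT. B cell markers were called higher in 4 of 9 in KO and 6 of 9 in WT, with sums of 2475 to 3014 in KO HDM, 2239 to 3542 in WT HDM, 1582 to 1833 in KO PBS and 1096 to 1350 in WT PBS samples.

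Germinal centre B cell markers were called in 0 of 5 and thymocyte markers in 0 of 3 in each genotype, with Rgs13, Rag1 and Rag2 under the filter. At the shares called over all tested genes, 0 calls in lists this short say little. Endothelial markers were called lower in 5 of 6 in KO and 6 of 6 in WT, with sums of 4278 to 4563 in KO HDM, 3976 to 4564 in WT HDM, 6208 to 7268 in KO PBS and 6721 to 7194 in WT PBS samples. Erythroid markers were called lower in 2 of 5 in KO and 1 of 5 in WT. Alveolar type 2 markers were called lower in 0 of 6 in KO and 2 in WT. Fibroblast markers were called higher in 1 of 5 in each genotype, and lower in 2 in KO and 0 in WT. Monocyte and neutrophil markers were called higher in 1 of 5 in each. Type 2 lymphocyte markers were called in 0 of 3 and skeletal muscle markers in 0 of 5 in each genotype. The members are expressed by any dividing cell, and these arrays do not say which cells carried them.

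Other genes of the machinery were read from lists. Over all tested genes 5.77% were called higher and 5.33% lower in KO, and 5.48% higher and 5.18% lower in WT. Of 71 further mitosis genes tested, 25 were called higher in KO and 18 in WT, 0 lower, with median differences of 0.57 in KO and 0.39 in WT. The largest called rises in KO were Spc24 (2.41 ± 0.43), a partner of Spc25, Kif22 (2.26 ± 0.18), a chromosome-arm kinesin, and Cks1b (1.82 ± 0.19), a subunit of cyclin-dependent kinases. In WT they were Sgo2a (1.82 ± 0.41), a protector of centromeric cohesin, Knstrn (1.64 ± 0.25), a kinetochore adaptor, and Kif22 (1.62 ± 0.18). The 15 subunits of the anaphase-promoting complex had 0 calls in either genotype, with medians of 0.037 in KO and -0.11 in WT. At the shares over all tested genes, 0 calls among 15 genes say little. Of 10 cohesin genes, with medians of -0.23 in KO and -0.17 in WT, none was called in KO and Stag1 was called lower in WT (-0.65 ± 0.14, adjusted p = 0.0144).

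Of 20 cell cycle transcription factors, 3 were called higher in KO and 0 in WT, with medians of 0.089 in KO and 0.14 in WT. Over all tested genes 5.77% were called higher in KO and 5.48% in WT, so 0 of 20 says little. E2f3 rose by 0.64 ± 0.18 in KO, E2f7 by 0.64 ± 0.16 and Tfdp1, an E2F partner, by 0.61 ± 0.14. Foxm1 and Mybl2, which encode FoxM1 and B-Myb, were not called, at 0.51 ± 0.25 in KO and 0.49 ± 0.25 in WT for Foxm1 and 0.67 ± 0.22 in KO and 0.32 ± 0.22 in WT for Mybl2. Of 17 inhibitors of the cell cycle, 2 were called lower in each genotype and 0 higher, with medians of -0.0065 in KO and -0.034 in WT. Of all tested genes 5.33% were called lower in KO and 5.18% in WT. Cdkn1c, which encodes p57, fell in both, by 1.0 ± 0.18 in KO (adjusted p = 0.00512) and by 1.08 ± 0.18 in WT (adjusted p = 0.0032). Cdkn2b, which encodes p15, fell in KO (-0.66 ± 0.13, adjusted p = 0.00831) and was at -0.20 ± 0.13 in WT, and Klf4, a transcription factor that restrains division, was at -0.42 ± 0.19 in KO and fell in WT (-0.89 ± 0.19, adjusted p = 0.0111). Genes of DNA replication and entry into S phase were called higher in 14 of 45 in KO and 9 of 45 in WT, with medians of 0.51 in KO and 0.34 in WT.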

How the data were processed

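Lung RNA of 12 samples was measured on 24 arrays. For each probe set the authors deposited a linear intensity, scaled so that every array had the same mean after trimming 2% from each end (150.04 on set A, 150.02 on set B), as computed from the values. The labels name no software. The number of arrays limits the precision.

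The log2 of each intensity was taken after adding 7 on set A or 11 on set B, a pseudocount at the 10th percentile of the set. Control probe sets and those with a mean under the 30th percentile (33.9 on set A, 43.5 on set B) were left out, and the 100 shared ones were tested on set A. Names came from the platform annotation, updated through RefSeq. A 4-group model with 8 residual degrees of freedom was fitted to 31496 probe sets with limma 3.58.1 in R 4.3.3 (eBayes with a trend), tested on simulated data first, with Benjamini-Hochberg adjustment at 0.05 within each of 5 comparisons.

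The members, lists and rules were chosen with earlier results of these data known. Sample values were given for the members with the largest HDM effect per role and genotype, the 5 with the smallest interaction p, the 3 with the largest genotype difference after PBS and those whose probe sets disagreed. Further pathway lists were given as counts and medians, with the 3 largest called rises and falls among other mitosis genes, transcription factors and inhibitors. Cdc20, Spc25 and Cdca8 were singled out, or drawn, after their values were seen. Alternatives were other pseudocounts, filters, scalings, variance settings and probe set choices, a replicate block, and leaving out samples. Replicate numbers were not treated as pairs in the main model. Deviations of same-numbered samples correlated at -0.071 to 0.172, and those of other samples at -0.199 to 0.129. These ranges overlap, but they cannot exclude a weak pairing.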

Additional observations from a re-analysis of the deposited data

How the results depend on the processing

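The direction of the member medians for the HDM effects held under every alternative run. Of the 24 calls in KO 20, and of the 23 in WT 14, were made under every omission of 1 sample. The KO median was 1.38 with a pseudocount of 1, 0.96 with the 30th percentile, 1.61 with a filter at the 50th percentile and 0.85 with the mean over all probe sets. The WT count was 11 with only the WT samples fitted, 5 without the 3 muscle samples, a fit with a single WT HDM sample, and 13 without the 2 samples with the lowest actin ratio, and 14 to 22 without 1 sample at a time. The WT median was 0.75 with a pseudocount at the 30th percentile, 0.92 with no filter, 1.12 with the 50th percentile filter, 0.88 without the muscle samples, 0.91 without the low-actin samples, 0.77 with the mean over probe sets and 0.91 to 1.09 without 1 sample at a time. The interaction median was 0.30 with the 30th percentile pseudocount, 0.31 with the mean over probe sets and 0.31 to 0.46 without 1 sample at a time. In the replicate block fit 24 members were called in KO and 21 in WT, and 0 in the interaction. The single call of KO against WT after HDM, Cenpa, became 0 with a pseudocount of 1, no filter, the 50th percentile filter, eBayes without a trend, the replicate block, the muscle or low-actin samples left out, and either other choice of probe set, and was 0 to 1 without 1 sample at a time. After PBS the count was 0 to 1 without 1 sample. The causes were not tested.

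Values near 0 changed sign. In KO, Tpx2 was 0.38 with the mean over probe sets, 1.10 with set A and -0.66 to 0.10 without 1 sample. In KO, Anln was 0.041 with the 30th percentile pseudocount, 0.56 without the low-actin samples, 0.30 with the mean over probe sets, 0.59 with set A and -0.33 to 0.56 without 1 sample, and Cenpa was -0.089 to 0.18 without 1 sample. In WT, Tpx2 was 0.12 without the muscle samples, 0.070 without the low-actin samples, 0.26 with the mean over probe sets, 0.88 with set A, and -0.30 to 0.11 without 1 sample. In WT, Spc25 was -0.019 after quantile normalization, -0.40 without the muscle samples, -0.18 without the low-actin samples and -0.18 to 0.27 without 1 sample. In WT, Hmmr was -0.084 without the muscle samples and Anln 0.35 with set A.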
